A study of Mus musculus with 12 samples.

Results

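The 8 genes described here, Ly6a, Anxa1, Anxa3, Clu, S100a6, Il33, Ctgf and Cyr61, were chosen by name as genes of a fetal-like repair state of the gut epithelium. The deposited tables listed 22377 genes, and all 8 were among them. Each gene's value in a library was the sum of the FPKM of its listed transcripts, where FPKM counts fragments relative to the transcript's length and to the sequencing total of the library. RNA from mouse colon was sequenced in 12 libraries, 4 each from control mice, mice labelled DSS and mice labelled FGF1. DSS is dextran sulfate sodium, a polymer that injures the lining of the colon, and FGF1 is fibroblast growth factor 1, given as recombinant protein according to the series' design text, which concerns mice with bowel inflammation. The labels give neither dose, duration, strain, age nor sex, and leave unsaid whether DSS was given to the FGF1 mice as well. They also do not say that the 4 libraries of a group came from separate animals, so the p-values measure only the spread between these libraries, which may be technical.

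After injury, epithelial cells beside a wound in the gut can take up for a time genes that are typical of the fetal gut. Ly6a (Sca-1), Anxa1, Anxa3 and Clu are much used as marks of that state, and the co-activators YAP and TAZ, which the Hippo kinases hold back and which act through TEAD proteins bound to DNA, are known drivers of it. Ctgf (Ccn2 in newer naming) and Cyr61 (Ccn1) are classic YAP and TAZ targets. Several of the genes are also known from other cells of the colon wall, such as Il33 and Ctgf from stroma and Anxa1 from neutrophils, and the libraries hold whole-tissue RNA. In such bulk RNA, fewer cells of a type and less RNA per cell cannot be told apart.

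The letters before RefSeq starts of 3 of these genes are shown because the Hippo pathway acts through TEAD, whose usual site reads CATTCC, or GGAATG on the other strand. Il33 is shown with both of its start sites, since its 2 main listed transcripts begin there and their levels varied between libraries. RefSeq promoter sequences on GRCm38.p6 were found for 4 of the 8 genes, with 5 starts in all, and not for Ly6a, Anxa3, Clu and Ctgf. Each sequence below is the 250 bases before the start, read 5′ to 3′ on the gene's strand, with the TEAD letters in capitals. They lie at chr3:145649986-145650235 (minus strand) for Cyr61, chr19:20390672-20390921 (minus strand) for Anxa1, chr19:29924863-29925112 (plus strand) for the first Il33 start and chr19:29945540-29945789 (plus strand) for the second.
Cyr61: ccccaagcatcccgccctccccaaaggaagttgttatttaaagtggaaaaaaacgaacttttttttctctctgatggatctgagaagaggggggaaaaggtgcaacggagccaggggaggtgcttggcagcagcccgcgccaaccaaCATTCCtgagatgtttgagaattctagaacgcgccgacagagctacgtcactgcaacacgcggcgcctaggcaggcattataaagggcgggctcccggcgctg
Anxa1: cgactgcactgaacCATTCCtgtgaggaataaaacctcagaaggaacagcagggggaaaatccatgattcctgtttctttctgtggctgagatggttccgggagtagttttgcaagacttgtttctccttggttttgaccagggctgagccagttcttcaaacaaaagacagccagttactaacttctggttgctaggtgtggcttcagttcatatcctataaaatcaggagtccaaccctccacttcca
Il33 first start: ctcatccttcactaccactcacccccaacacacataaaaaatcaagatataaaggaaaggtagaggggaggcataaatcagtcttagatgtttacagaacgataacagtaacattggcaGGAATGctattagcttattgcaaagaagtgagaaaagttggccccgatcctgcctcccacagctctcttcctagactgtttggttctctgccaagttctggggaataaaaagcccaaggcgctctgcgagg
Il33 second start: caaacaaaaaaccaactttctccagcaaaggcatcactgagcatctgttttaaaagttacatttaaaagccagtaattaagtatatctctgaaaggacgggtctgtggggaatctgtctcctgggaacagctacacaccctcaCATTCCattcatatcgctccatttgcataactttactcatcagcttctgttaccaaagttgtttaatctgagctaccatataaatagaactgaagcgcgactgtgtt
The letters begin 103 bases before the start in Cyr61, 236 in Anxa1, and 131 and 107 at the first and second starts of Il33. For Anxa1 the RefSeq start used, at 20390671, is not that of its main listed transcript. That transcript, ENSMUST00000025561, begins at 20390944 on the minus strand, so the Anxa1 stretch and its match lie within its span and not upstream of it. In S100a6, at chr3:90612644-90612893 on the plus strand, neither CATTCC nor GGAATG occurred. Over 32851 RefSeq promoters of the same length, 12.6% held these letters on either strand. The AP-1 letters TGANTCA, searched on both strands, were in none of the 5 sequences and in 6.75% of all promoters. A match is a description of the letters only.

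Between 11190 and 12721 genes reached 1 FPKM in a library, and 12578 genes with at least 1 FPKM in at least 4 libraries were tested. The deposited values hold no read counts, so the counting error behind each value is unknown. Epithelial markers, of which 11 of 12 were listed (Cldn3 was not), summed to between 7128 and 18888 FPKM in every library, so colon epithelium was present throughout. Over all genes, 1549 passed the test between DSS and control colon, 280 of them higher in DSS and 1269 lower. The median log2 difference of all genes there was -0.07, and median-of-ratios scaling moved it to 0.05 and the calls to 677 up and 982 down.

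S100a6 was the most abundant of the 8 genes in every group, and Il33 the least abundant by mean. In control colon the mean FPKM ran from 505 for S100a6 through 71.3 for Ly6a, 33.3 for Anxa1, 30.2 for Anxa3, 13.03 for Clu, 10.5 for Ctgf and 5.63 for Cyr61 to 1.24 for Il33. The FGF1 group had the same order by mean. In DSS colon Cyr61, at 6.62 FPKM, stood above Ctgf, at 4.74. Neighbours in this order mostly overlapped in range: in control and in FGF1 colon the ranges parted only between S100a6 and Ly6a, between Anxa3 and Clu and between Cyr61 and Il33, and in DSS colon only between S100a6 and Ly6a.

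**Figure D1:**
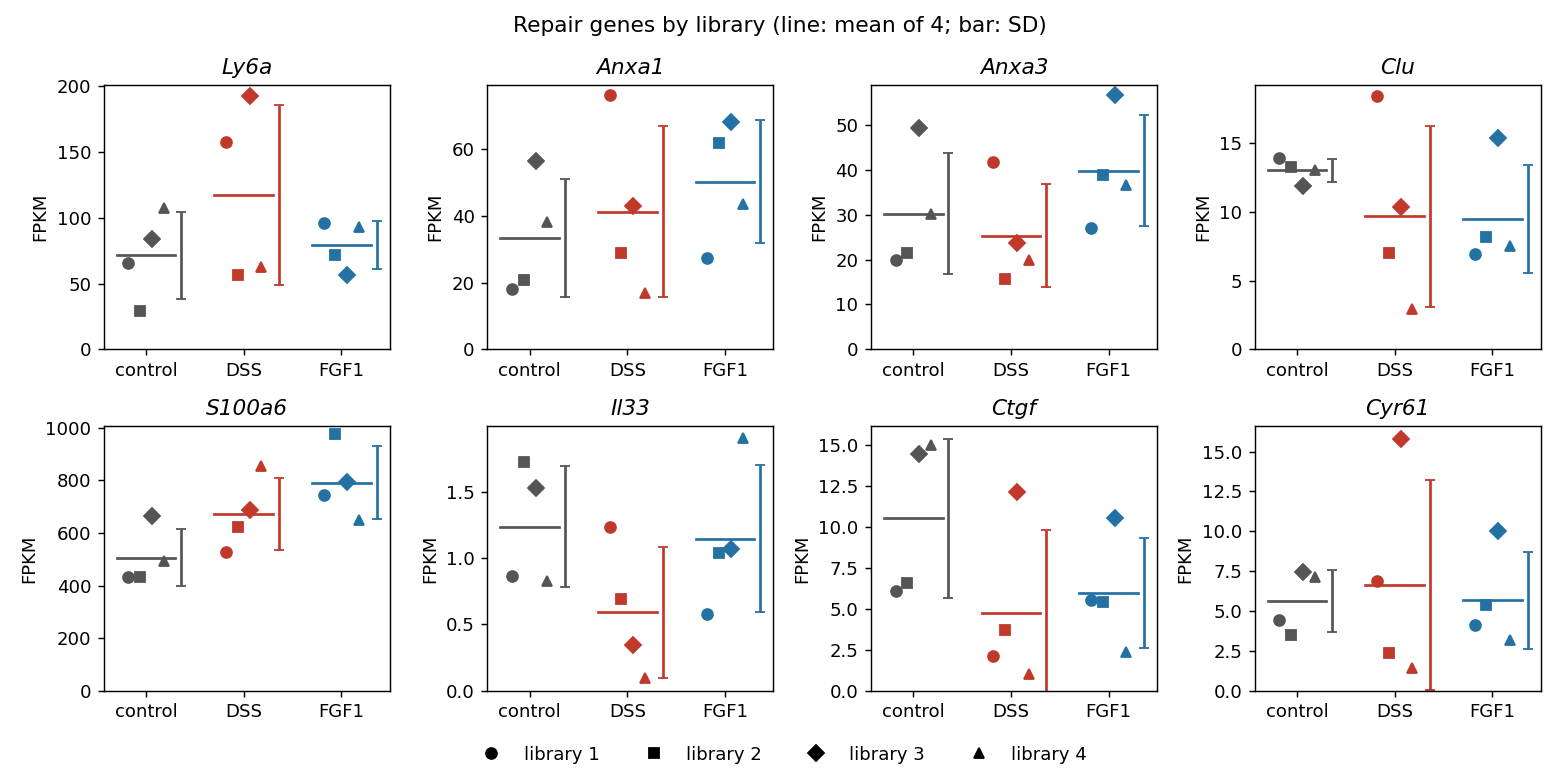
FPKM of each of the 8 genes in the 12 libraries, 1 panel a gene, with its own linear y axis from 0. Marker shapes give the library number in each group, horizontal lines the mean of 4 libraries and vertical bars the SD, cut off at 0 where it passes below. The groups overlap in every panel, and DSS libraries are widely spread for Ly6a, Clu and Cyr61.

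The comparison of DSS with control colon asks whether injury came with higher levels of these genes. No gene of the 8 passed the test in any of the 3 comparisons: limma, adjusted over all 12578 genes, called 0 of 8 in DSS against control, where it called 12.3% of all genes, 0 of 8 in FGF1 against DSS, where it called 0.0557%, and 0 of 8 in FGF1 against control, where it called 0.0795%. At an unadjusted limma p under 0.05, 1 of the 8 genes passed in DSS against control (Ctgf), none in FGF1 against DSS and 1 in FGF1 against control (S100a6). Over all genes, 3483, 1561 and 1753 passed that line in the same order. The libraries of the groups compared overlapped for all 8 genes in each comparison, while they did not overlap for 16.9% of all tested genes in DSS against control, 6.28% in FGF1 against DSS and 10.3% in FGF1 against control. With 4 libraries against 4, the exact permutation test cannot give a two-sided p under 0.0286, and no gene of the 8 reached 0.05 by it.

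**Figure D2:**
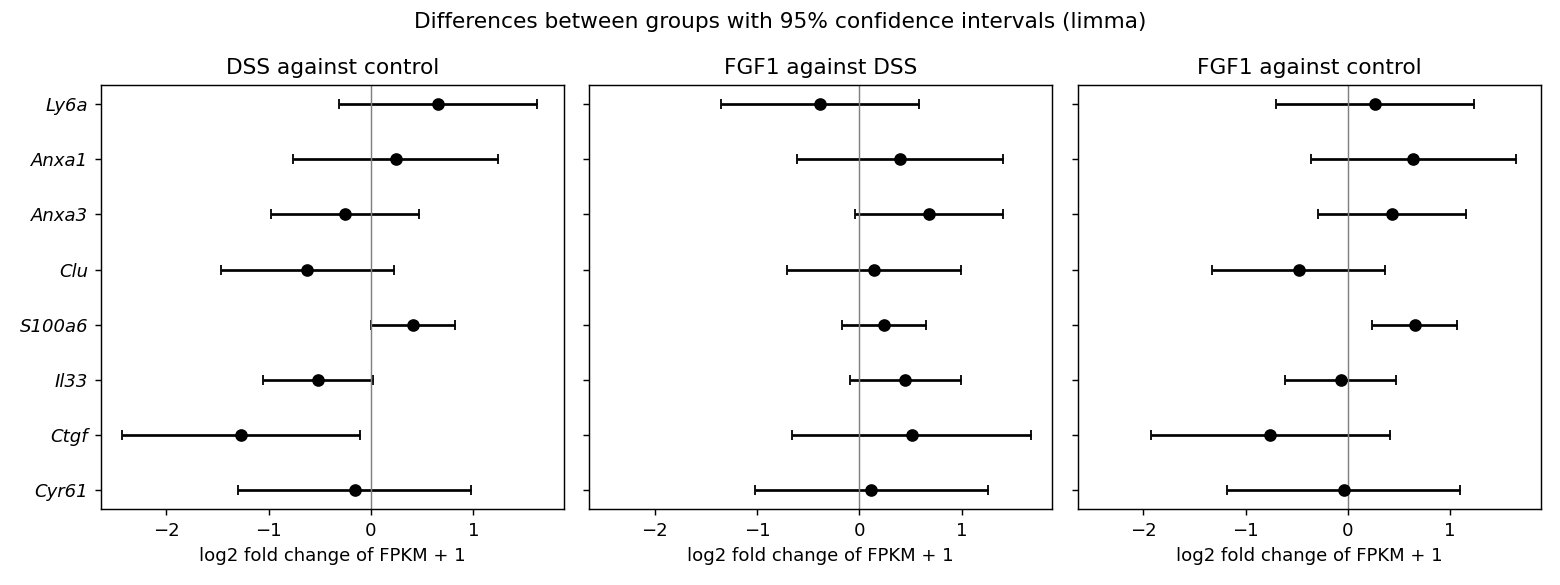
Differences between groups on the log2(FPKM + 1) scale for the 8 genes, from limma over all 12 libraries. Points are the differences and bars their 95% confidence intervals, which are not adjusted for multiple tests. In DSS against control the interval of Ctgf lies below 0, and in FGF1 against control that of S100a6 lies above 0.

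Ly6a, the gene of the surface protein Sca-1, had the highest single values in the DSS group. It stood at 65.3, 29.4, 83.4 and 107 FPKM in control libraries 1 to 4, at 157, 56.7, 193 and 62.3 in the DSS libraries and at 95.9, 71.9, 56.6 and 92.7 in the FGF1 libraries. DSS libraries 1 and 3 were above all control and FGF1 libraries, while DSS 2 and 4 were inside the control range. The means were 71.3 ± 32.7 FPKM in control, 117 ± 68.2 in DSS and 79.3 ± 18.5 in FGF1 colon (SD, n = 4 each). The log2 difference of DSS from control was 0.65 ± 0.44 (SE), with a 95% interval of -0.31 to 1.62 and an adjusted p of 0.380 by limma. That of FGF1 from DSS was -0.39 and that of FGF1 from control 0.26, with limma adjusted p of 0.764 and 0.847. Ly6a has close relatives in a gene cluster on chromosome 15, so reads of these genes may not be cleanly told apart.

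Anxa1 and Anxa3 encode annexins, proteins that bind membranes when calcium is present, and Anxa1 is also known as a mediator that ends inflammation. Anxa1 stood at 17.96, 20.8, 56.4 and 38.2 FPKM in the control libraries, at 76.1, 28.7, 42.8 and 17.0 in the DSS libraries and at 27.4, 61.9, 67.9 and 43.4 in the FGF1 libraries. Both the highest and the lowest of the 12 values were in the DSS group. Anxa3 stood at 19.9, 21.4, 49.4 and 30.2 FPKM in control, at 41.8, 15.7, 23.7 and 19.8 in DSS and at 27.1, 38.9, 56.7 and 36.6 in FGF1 libraries. The ranges of its 3 groups overlapped, with the highest value in FGF1 library 3.

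Of the differences of Anxa1 and Anxa3 between groups, the largest was that of Anxa3 between FGF1 and DSS colon, with means of 39.8 ± 12.4 and 25.3 ± 11.5 FPKM (SD, n = 4 each). Its log2 difference was 0.68 ± 0.33 (SE), with a 95% interval of -0.04 to 1.40 and an adjusted p of 0.433 by limma. For DSS against control the log2 difference was 0.24 ± 0.46 for Anxa1 and -0.25 ± 0.33 for Anxa3, with limma adjusted p of 0.786 and 0.683. For FGF1 against control it was 0.64 ± 0.46 and 0.43 ± 0.33, with limma adjusted p of 0.582 and 0.613. The means of Anxa1 were 33.3 ± 17.8 in control, 41.2 ± 25.6 in DSS and 50.2 ± 18.4 FPKM in FGF1 colon (SD, n = 4 each).

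S100a6, a small calcium-binding protein of proliferating and motile cells, had higher means in DSS and in FGF1 colon than in control, by differences that did not pass the test. Its values were 433, 433, 663 and 492 FPKM in control, 527, 621, 688 and 853 in DSS and 744, 977, 794 and 648 in FGF1 libraries. Of the FGF1 libraries 3 were above every control library, and of the DSS libraries 2 were. The means were 505 ± 109 in control, 672 ± 138 in DSS and 791 ± 138 FPKM in FGF1 colon (SD, n = 4 each). The log2 difference of FGF1 from control was 0.65 ± 0.19 (SE), with a 95% interval of 0.24 to 1.06, an unadjusted limma p of 0.0049 and an adjusted p of 0.168, and the exact permutation p was 0.0571. DSS differed from control by 0.41 ± 0.19, with a limma p of 0.0507 before and 0.182 after adjustment.

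Markers of endothelium and macrophages had lower mean sums in DSS and in FGF1 colon than in control. Endothelial markers summed to 61.6 to 73.3 FPKM in control, 9.09 to 39.4 in DSS and 24.4 to 41.7 in FGF1 colon. In DSS against control limma called 9 of the 10 lower, beside 10.1% of all tested genes. Macrophage markers summed to 99.9 to 153, 30.5 to 71.3 and 48.1 to 125 FPKM in the same order of groups. Of these 10, limma called 7 lower in DSS against control. No marker of either list was at 0 in all libraries of a group. Their part in the S100a6 values was not tested.

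Clu, the secreted chaperone clusterin and the mark of so-called revival stem cells, was the most even of the 8 genes in control colon and spanned a wide range in DSS colon. It stood at 13.9, 13.3, 11.9 and 13.01 FPKM in control, a spread of 6.38% of the mean, and at 18.5, 6.99, 10.3 and 2.91 in DSS, a spread of 68.2%. In the FGF1 libraries it stood at 6.95, 8.16, 15.3 and 7.55 FPKM. In both of those groups 3 libraries lay below all controls and 1 above them. The means were 13.03 ± 0.831, 9.67 ± 6.59 and 9.50 ± 3.93 FPKM (SD, n = 4 each), and the log2 difference of DSS from control was -0.62 ± 0.39 (SE), with a 95% interval of -1.47 to 0.23 and an adjusted p of 0.336 by limma. The difference in spread between the groups was not tested.

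Il33, an alarmin released by damaged barrier and stromal cells, was near the lower limit of the data and reached 1 FPKM in 6 of the 12 libraries. It stood at 0.862, 1.72, 1.53 and 0.830 FPKM in control, at 1.24, 0.689, 0.347 and 0.0942 in DSS and at 0.577, 1.04, 1.07 and 1.904 in FGF1 libraries. All DSS libraries but the first were below every control library. The means were 1.24 ± 0.457, 0.592 ± 0.494 and 1.15 ± 0.553 FPKM (SD, n = 4 each). On the log2(FPKM + 1) scale, which understates the change of so low a gene, DSS differed from control by -0.52 ± 0.25 (SE), with an adjusted p of 0.201 by limma, and FGF1 from DSS by 0.45 ± 0.25, with an adjusted p of 0.495. For fibroblast markers, limma called all 10 lower in DSS against control, beside 10.1% of all tested genes. They summed to 296 to 411 FPKM in control, 19.7 to 109.5 in DSS and 90.8 to 248 in FGF1 colon, with none at 0 throughout a group. Their part in the Il33 values was not tested.

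Ctgf and Cyr61 are secreted matrix proteins of the CCN family, and of the 8 genes Ctgf had the largest difference between DSS and control colon. Ctgf stood at 6.08, 6.58, 14.4 and 14.96 FPKM in control, at 2.13, 3.69, 12.1 and 1.04 in DSS and at 5.56, 5.39, 10.5 and 2.36 in FGF1 libraries. In the DSS and in the FGF1 group, 3 of 4 libraries were below every control library and library 3 was inside the control range. The means were 10.5 ± 4.84, 4.74 ± 5.03 and 5.95 ± 3.37 FPKM (SD, n = 4 each). DSS differed from control by -1.27 ± 0.54 on the log2 scale (SE), with a 95% interval of -2.43 to -0.10, a limma p of 0.0354 before and 0.145 after adjustment, and an exact permutation p of 0.114. Without DSS library 3 the log2 difference was -1.79 and the limma adjusted p 0.0416, past the threshold. Over the other alternatives and libraries left out, no gene of the 8 passed in any comparison.

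Cyr61 did not follow Ctgf in the DSS mean. It stood at 4.45, 3.51, 7.44 and 7.13 FPKM in control, at 6.87, 2.36, 15.8 and 1.45 in DSS and at 4.13, 5.38, 10.02 and 3.16 in FGF1 libraries. DSS library 3 held the highest of the 12 values and DSS library 4 the lowest. The log2 difference of DSS from control was -0.16 ± 0.52 (SE), with an adjusted p of 0.884 by limma, beside means of 6.62 ± 6.57 and 5.63 ± 1.95 FPKM (SD, n = 4 each), so the mean of the raw values and that of the log values differ in sign. Of the 10 smooth muscle markers, limma called 4 lower in DSS against control, beside 10.1% of all tested genes. All 10 had an unadjusted limma p under 0.05 there, with a median log2 difference of -1.82. They summed to 2242 to 7149 FPKM in control, 490.2 to 1713 in DSS and 1015 to 6568 in FGF1 colon, with none at 0 throughout a group. The highest sums were in control 3 and FGF1 3, the libraries with the highest Cyr61 of their groups, while among the DSS libraries the sum was highest in library 1 and Cyr61 in library 3. Their part in the Ctgf and Cyr61 values was not tested.

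FGF1 colon had higher log2 means than DSS colon for 7 of the 8 genes, all but Ly6a, and none of these differences passed the test. By mean FPKM, Clu (9.50 against 9.67) and Cyr61 (5.67 against 6.62) were instead lower in FGF1 than in DSS colon. Their log2 differences were 0.14 and 0.12, and both changed sign when some single libraries were left out. The median log2 difference of the 8 genes was 0.32 for FGF1 against DSS, beside 0.05 over all tested genes. For DSS against control it was -0.20 beside -0.07, with 3 genes above and 5 below 0. For FGF1 against control it was 0.11 beside -0.04, with 4 genes on each side, of which Cyr61 changed side with median-of-ratios scaling (0.019). The 3 comparisons share libraries, and the medians describe these genes only.

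Single libraries stood out across several of the 8 genes. Control library 3 was above the median of all 12 libraries for all 8 genes and FGF1 library 3 for 7, while DSS library 2 was above it for none. DSS library 4 held the lowest of all 12 values for 5 genes: Anxa1, Clu, Il33, Ctgf and Cyr61. DSS libraries 1 and 3 were the 2 highest of their group for 5 genes: Ly6a, Anxa1, Anxa3, Clu and Cyr61. The same pair had the highest neutrophil markers, which summed to 139, 4.70, 48.2 and 2.72 FPKM in DSS libraries 1 to 4, against 1.41 to 5.06 in control and 4.46 to 15.4 in FGF1 colon. Ly6g, a relative of Ly6a whose reads may not be cleanly told apart from it, made up 86.6, 3.63, 27.7 and 1.23 FPKM of the DSS sums.

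All 10 neutrophil markers were listed. Cxcr2, Retnlg and Ngp were at 0 in every control library, and Ngp also in every FGF1 library. S100a8, the gene of a main protein of neutrophils, stood at 19.7, 0.365, 10.1 and 0.511 FPKM in the DSS libraries and between 0 and 0.151 in control. Mmp9, Csf3r and Camp went the other way, with means of 0.413, 0.0815 and 0.0771 FPKM in DSS and 0.901, 0.133 and 0.223 in control. The rest of the list had higher means in DSS than in control colon. Ly6g and S100a9, the only neutrophil markers abundant enough to test, were not called in any comparison, with an unadjusted limma p under 0.05 for both in DSS against control. The part of neutrophil RNA in the values of Ly6a, Anxa1 and the other genes was not tested.

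**Figure D3:**
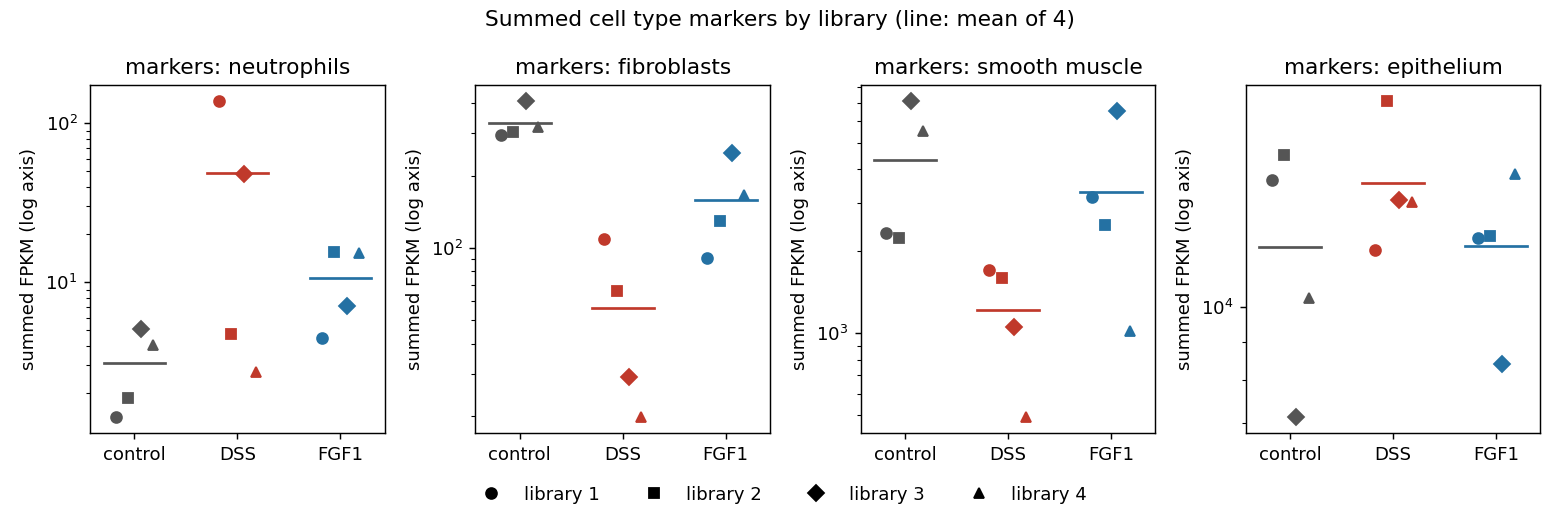
Summed FPKM of the marker lists of neutrophils, fibroblasts, smooth muscle and epithelium in the 12 libraries, on log axes, with shapes for the library number and lines for the mean of 4. DSS libraries 1 and 3 stand above the other libraries for neutrophil markers, and all DSS libraries stand below all control libraries for fibroblast markers.

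Across the 12 libraries the closest pair among the 8 genes was Anxa1 and Anxa3, with a Pearson r of 0.85 on log2 values, 0.90 within groups and 0.83 without the 2 libraries farthest from the median of Anxa1. Ctgf and Cyr61 followed, with r of 0.74, 0.84 within groups and 0.63 without 2 libraries. Clu and S100a6 ran in opposite directions, with r of -0.57. These correlations over 12 libraries, in 3 groups that share tissue composition within a library, are a description and carry no test. With the marker lists, Il33 was closest to fibroblasts (r = 0.77), Clu to endothelium (0.72), Ctgf to smooth muscle (0.76) and Ly6a to neutrophils (0.72). The neutrophil list holds Ly6g, a relative of Ly6a. Other lists came close: macrophages (0.75) and endothelium (0.72) for Il33, fibroblasts (0.67) and B and plasma cells (0.65) for Clu. Anxa1 was closest to neutrophils (0.60), and Anxa3 and Cyr61 to smooth muscle (0.54 and 0.45). Cyr61 was nearly as close to neutrophils (0.43). Within groups, Anxa3 and Cyr61 were closer to neutrophils (0.64 and 0.60) than to smooth muscle (0.57 and 0.54). The highest r of S100a6 was 0.11, with epithelium, and within groups that r was -0.46. Its negative r were larger in size, at -0.67 with endothelium and -0.64 with both macrophages and B and plasma cells. The lowest r with epithelial markers were those of Ctgf (-0.63), Anxa3 (-0.57) and Cyr61 (-0.52).

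Among tested genes outside the 8, the one most like each by Pearson r over the 12 libraries was Npepl1 for Ly6a (0.89), Skap2 for Anxa1 (0.95), Fer1l4 for Anxa3 (0.93) and Zbtb21 for Clu (0.93). For S100a6 it was Rps28 (0.88), for Il33 Acot9 (0.94), for Ctgf Zfp970 (0.90) and for Cyr61 Abracl (0.88). The next for Ctgf was Myl6 (0.89), a myosin light chain. These are the highest values over all tested genes and describe likeness only.

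Gene values were sums of transcripts, and the transcripts behind them differed between libraries. All coordinates are on GRCm38. Il33 (chromosome 19, 29925114 to 29960718, plus strand) was mostly one or the other of 2 protein-coding transcripts, and another, ENSMUST00000136850, which begins at 29951816, made up at most 16.9% of the gene in a library. ENSMUST00000120388, which begins at 29925114, stood at 0.862, 1.72, 1.53 and 0 FPKM in control, at 0.695, 0.689, 0.347 and 0 in DSS and at 0, 0, 0.155 and 1.9001 in FGF1 libraries. ENSMUST00000025724, which begins at 29945790, was at 0 in 3 control libraries and at 0.689 in the fourth, and stood at 0.540, 0, 0 and 0.0942 in DSS and at 0.577, 0.958, 0.910 and 0 in FGF1 libraries. Both transcripts were listed in at least 1 library of every group, and at these levels a listed 0 can be a transcript that was not assembled. Their starts are at or next to those whose upstream letters are shown above.

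S100a6 (chromosome 3, 90612882 to 90624181, plus strand) was mostly ENSMUST00000001051, at 401, 334, 596 and 450 FPKM in control, 470, 521, 645 and 837 in DSS and 737, 971, 622 and 580 in FGF1 libraries. For this transcript alone, FGF1 libraries 1 to 3 and DSS libraries 3 and 4 were above every control library. A transcript annotated as subject to nonsense-mediated decay, ENSMUST00000200289, reached 163 FPKM in FGF1 library 3 and was under 1 FPKM in FGF1 libraries 1 and 2 and in DSS library 4. Anxa3 (chromosome 5, 96793339 to 96845966, plus strand) had all 9 annotated transcripts listed. Its main one, ENSMUST00000031447, had means of 17.6 ± 8.88 FPKM in control, 14.1 ± 7.01 in DSS and 17.4 ± 6.33 in FGF1 colon (SD, n = 4 each). The gap between FGF1 and DSS colon was thus smaller for this transcript than for the gene. Its intron-retaining ENSMUST00000197196 stood at 0.911, 0.696, 3.46 and 4.02 FPKM in control, at 10.4, 4.35, 6.56 and 3.53 in DSS and at 3.27, 11.5, 8.33 and 6.86 in FGF1 libraries. Its shorter coding transcript ENSMUST00000198631 was listed in all control libraries, at 2.00 to 4.65 FPKM, and was at 2.69, 0, 0 and 0 in DSS and at 5.04, 0, 11.1 and 8.24 in FGF1 libraries.

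**Figure D4:**
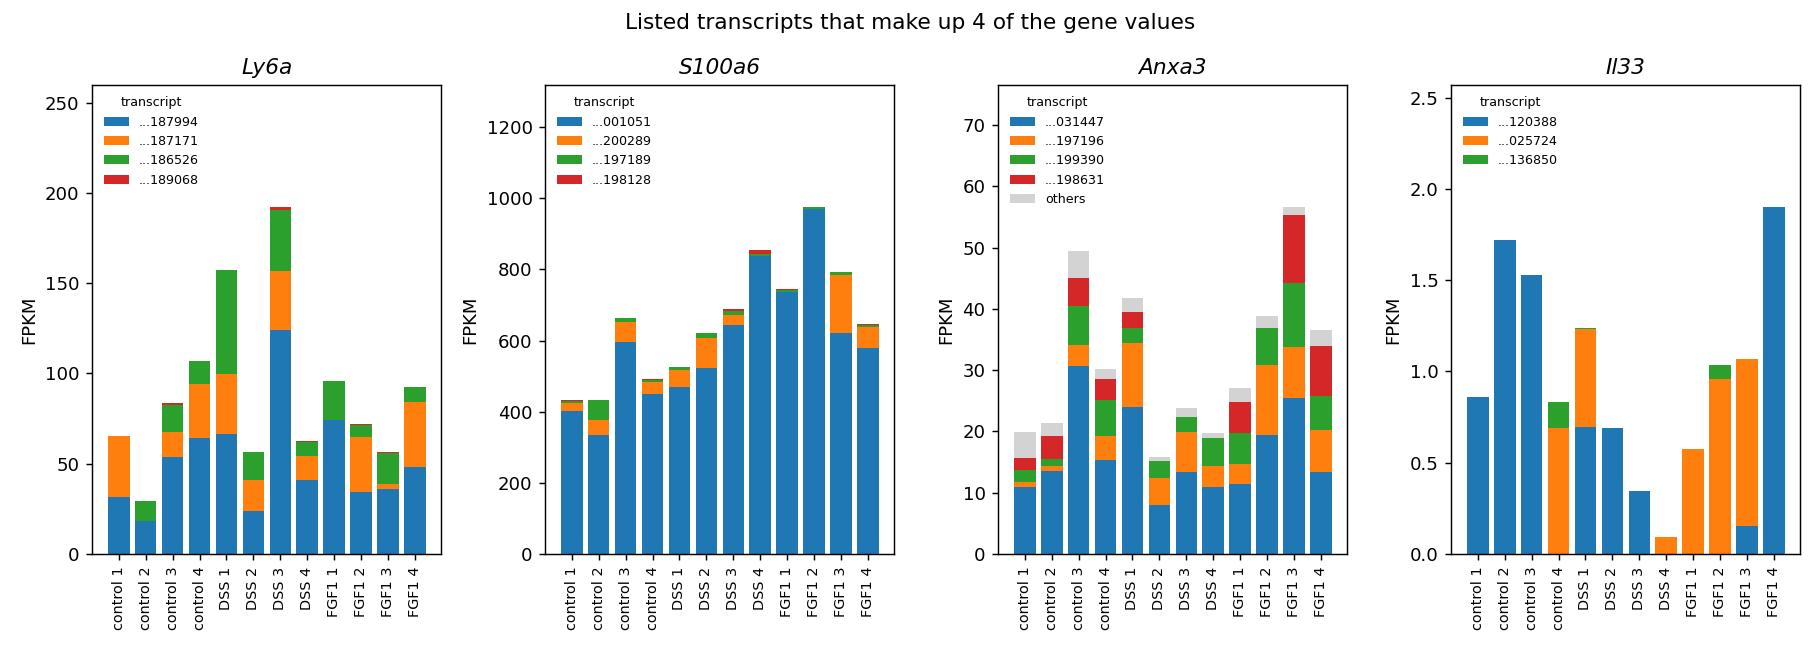
Stacked FPKM of the listed transcripts of Ly6a, S100a6, Anxa3 and Il33 in each of the 12 libraries, on linear y axes from 0; each colour is a transcript, named by the end of its Ensembl number. Il33 changes between 2 main transcripts from library to library, and S100a6 is mostly the same transcript throughout.

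Ly6a (chromosome 15, 74994877 to 74998031, minus strand) had 4 of 6 annotated transcripts listed. Its main one, ENSMUST00000187994, ran from 17.98 to 64.1 FPKM in control, from 23.6 to 124 in DSS and from 34.3 to 74.0 in FGF1 libraries, and ENSMUST00000187171 was at 0 in control 2 and FGF1 1. Clu (chromosome 14, 65968483 to 65981547, plus strand) was mostly ENSMUST00000022616. Anxa1 (chromosome 19, 20373428 to 20390944, minus strand) had 6 of 8 annotated transcripts listed and was mostly ENSMUST00000025561, at 87.0% to 99.5% of the gene in the libraries. Ctgf (chromosome 10, 24595442 to 24598683, plus strand) and Cyr61 (chromosome 3, 145646976 to 145649981, minus strand) had 1 listed transcript each. The annotated genes 1500015L24Rik, Gm42603 and Gm15270 overlap Anxa1, Anxa3 and Ctgf, and whether the counting used strand is not given in the sources used here, so shared reads are uncertain there.

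Among the other genes of the pathways limma called some genes in DSS against control, each of them lower in DSS colon, beside 10.1% of all tested genes called lower there. Of 22 tested further YAP and TAZ targets 9 were called lower, with a median log2 difference of -0.58 over the 22. Igfbp3, a binding protein for insulin-like growth factors, fell from 17.6 ± 4.94 to 3.52 ± 3.45 FPKM (SD, n = 4 each), a log2 difference of -2.25 with an adjusted p of 0.00642 by limma. The receptor kinase Axl (-1.80, adjusted p 0.00995 by limma) and the stromal transcription factor Foxf2 (-1.73, adjusted p 0.00468) were the next by size. Of 25 Hippo pathway components 5 were called lower. They were led by Wwtr1, the gene of TAZ, which fell from 7.13 ± 2.97 to 1.55 ± 0.963 FPKM (SD, n = 4 each; adjusted p 0.00995 by limma). Yap1, named after its value was seen, stood at 25.8 ± 3.53 and 19.2 ± 2.46 FPKM (SD, n = 4 each), with an adjusted p of 0.0427 by limma, past 0.05 in only 6 of 25 alternatives.

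Of 31 other tested genes of the fetal-like and regenerative state, limma called 5 lower in DSS colon and 0 higher. Over all tested genes, 10.1% were called lower. The median log2 difference of the 31 genes was -0.05, or 0.09 with median-of-ratios scaling, where 1 was called higher and 4 lower. Gja1, the gap junction protein connexin 43, fell from 11.1 ± 1.00 to 3.49 ± 2.35 FPKM (SD, n = 4 each; adjusted p 0.00733 by limma). Basp1 and Anxa5 also fell, by 1.32 and 0.73 on the log2 scale. Of 19 tested annexin and S100 relatives limma called 3 lower, among them Anxa6 by 1.76 on the log2 scale. With median-of-ratios scaling 2 were called lower and 2 higher. Nov, the only tested CCN relative, fell from 56.2 ± 20.3 to 16.4 ± 3.99 FPKM (SD, n = 4 each; adjusted p 0.0134 by limma). Of 7 tested Ly6 relatives limma called Ly6c2 alone, as lower in DSS colon. The counts of the fetal-like, annexin and S100 and Ly6 lists lie near that share and are not a result about these lists. Of 6 tested genes of the IL-33 pathway limma called 0, and 0 also had an unadjusted p under 0.05. The IL-33 receptor gene Il1rl1 and the annexin A1 receptor genes Fpr1 and Fpr2 were listed but too low to test.

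In FGF1 against DSS and in FGF1 against control, limma called 0 genes of each of these lists. At an unadjusted limma p under 0.05 there were 4 and 7 of the 22 tested YAP and TAZ targets, in that order of comparison. There were 2 and 4 of the 25 Hippo components and 5 and 7 of the 31 other fetal-like genes. Over all 12578 tested genes, 1561 and 1753 passed that line. The DSS calls did not hold with the fibroblast or the smooth muscle marker score in the model, where 0 of the YAP and TAZ targets, Hippo components and other fetal-like genes were called. Over all 12578 tested genes these fits called 0 and 29, against 1549 in the main fit. The loss was therefore not particular to these lists. Neither the fibroblast nor the smooth muscle sums of DSS and control colon overlap, so neither score can be told apart from the group. Without DSS 3 and DSS 4, 1 of the YAP and TAZ targets, 0 of the Hippo components and 1 of the other fetal-like genes were called. Beside them, 185 of all 12501 genes tested in that fit were called. The Hippo count of 5 was 1 without control 3, control 4, DSS 3 or DSS 4 and 8 without DSS 1. The count of 5 other fetal-like genes was 3 without control 3 or DSS 3, and that of 3 annexin and S100 relatives was 1 without control 4 or DSS 2. Over all tested genes the calls numbered 773 without control 3, 724 without control 4 and 1982 without DSS 1. They numbered 1562 without DSS 2, 697 without DSS 3 and 827 without DSS 4.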

How the data were processed

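RNA from mouse colon was sequenced in 12 libraries, 4 a group, each made with oligo(dT) beads from 5 µg of total RNA, per the labels. The submitters' processing notes name cutadapt 1.9, HISAT2 2.0.4, StringTie 1.3.4d, edgeR and GRCm38, without their roles. The authors deposited FPKM values per transcript, repeated at each transcript structure event. A gene's value was the sum over its listed transcripts, used with no further scaling, and a transcript not listed in a library counted as 0 there. Low values were not whole multiples of a read (at best 16.5% to 20.3% of them within 0.05), so depth is unknown and no count model was run. Differences were tested on log2(FPKM + 1), computed from the deposited FPKM, with limma 3.58.1 in R 4.3.3 (12 libraries, 3 groups, mean-variance trend, two-sided, Benjamini-Hochberg over 12578 genes, called at an adjusted p under 0.05). The exact permutation test was two-sided. limma was tested on simulated data. Symbols and coordinates came from GENCODE vM21, where Ctgf and Cyr61 are Ccn2 and Ccn1. The 8 genes and all lists were chosen with earlier results of these data known. Of the other lists, the called genes with the largest change are named, up to 3 in each direction, and for likeness the tested genes with the highest Pearson r. In all, 25 alternatives were run.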

Additional observations from a re-analysis of the deposited data

Results flagged for a closer look

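Clu in FGF1 library 3, at 15.35 FPKM, stood far from the other FGF1 libraries, which ran from 6.95 to 8.16. Its gap to the nearest of them was 0.856 of the range of the group, above the critical value that Dixon's test sets for 4 libraries at the 95% level. It was the only such library among 24 sets of 4 (8 genes in 3 groups), and chance alone marks about 1 in 20.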

How the results depend on the processing

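Of 593 recomputed differences of the 8 genes, 548 kept their direction and their side of the threshold, 44 changed sign without passing it, and 1 passed it (Ctgf without DSS 3). The cause of these changes was not tested. With 0 genes of the 8 called, leaving out a library gave 0 to 1 in DSS against control and 0 in the other comparisons.

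Genes called in DSS against control numbered 727 with start events, 844 with the largest transcript, 1028 with a replicate block, 0 with the fibroblast score, 29 with the smooth muscle score, 915 without control 3 and FGF1 3, 185 without DSS 3 and DSS 4, and 697 (DSS 3) to 1982 (DSS 1) without a single library. In FGF1 against DSS, where 7 were called, they numbered 18 with a filter of 8 libraries, 15 with median-of-ratios scaling, 1 with start events, 3 with 2 groups only, 2 with the replicate block, 0 and 2 with the fibroblast and smooth muscle scores, 2 without control 3 and FGF1 3, 0 without DSS 3 and DSS 4, and 0 (FGF1 2) to 43 (DSS 1) without a single library. In FGF1 against control, where 10 were called, they numbered 0 with a pseudocount of 0.1, 50 with no filter, 0 with a filter of 8 libraries, 1 with start events, 38 with 2 groups only, 28 with no trend, 1 with the replicate block, 0 and 2 with the scores, 20 without control 3 and FGF1 3, 38 without DSS 3 and DSS 4, and 0 (control 2) to 83 (FGF1 3) without a single library. Whether library numbers pair the samples is not settled by these values. Same-numbered libraries of different groups correlated at -0.217 to 0.399, and differently numbered ones at -0.364 to 0.257. The replicate block called none of the 8 genes, and nor did the main fit, so that outcome cannot speak to pairing.

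Log2 differences that changed sign in DSS against control were, with the fibroblast score, Anxa3 1.11, Clu 1.37, S100a6 -0.063, Il33 0.63, Cyr61 0.79, Anxa5 0.074, Anxa6 0.26, Axl 0.47, Frmd6 0.22, Wwtr1 0.044 and Yap1 0.036. With the smooth muscle score they were Anxa3 0.36, Clu 0.072 and Cyr61 0.74, with start events Anxa11 0.74 and Yap1 0.99, and without control 3 and FGF1 3 Anxa3 0.011. Leaving out a library gave -0.12 to 0.58 for Anxa1, -0.51 to 0.011 for Anxa3 and -0.68 to 0.25 for Cyr61. In FGF1 against DSS they were, with the fibroblast score, Anxa1 -0.83, Anxa3 -0.090, Clu -0.99, Il33 -0.21 and Cyr61 -0.42, and with the smooth muscle score Anxa1 -0.22, Clu -0.30, Ctgf -0.18 and Cyr61 -0.46. Start events gave Anxa1 -0.28, leaving out control 3 and FGF1 3 gave Clu -0.094 and Cyr61 -0.16, and leaving out DSS 3 and DSS 4 gave Clu -0.31. Leaving out a library gave -0.27 to 0.51 for Clu and -0.29 to 0.63 for Cyr61. In FGF1 against control they were, with the fibroblast score, Clu 0.38, Il33 0.43 and Cyr61 0.37, with the smooth muscle score Cyr61 0.28, with median-of-ratios scaling Cyr61 0.019, and without control 3 and FGF1 3 Il33 0.0029. Leaving out a library gave -0.11 to 0.50 for Ly6a, -0.23 to 0.066 for Il33 and -0.32 to 0.15 for Cyr61.

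The calls of the 14 other named genes in DSS against control were lost in 80 of 347 recomputed values, among them with either score and without DSS 3 and DSS 4 for each gene.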
